A study of Mus musculus with 4 samples.

Results

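The genes described here are 10 genes of glucose use and of the response to low oxygen, Slc2a1, Hk2, Pfkl, Aldoa, Gapdh, Pgk1, Eno1, Pkm, Ldha and Vegfa, followed through 2 tissues of the mouse tooth germ at 2 stages. They were found by their symbol among the named probes of the array. Of the 10 genes, 9 had a probe, out of 16039 named genes, and Eno1, which encodes enolase, is not analysed here. All 9 reached the minimum normalised signal of 100 in at least 1 column that was required of a gene, as did 14238 genes in all. The tissues were the dental follicle (DF), a sac of connective tissue that encloses the tooth germ, and the dental papilla (P), the mesenchyme within, from which dentin and pulp form. E17 and PN2 are the names of the stages in the labels. On 4 Agilent 2-colour arrays, DF was set against P at each stage and PN2 against E17 in each tissue. The sources used here give no strain, number of animals or pooling. Some label fields name other material than the titles do (a whole embryo, cultured stem cells, a DF PN3 stage), and the titles were followed.

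Glycolysis takes up glucose and breaks it down to pyruvate, which is either burnt in mitochondria or turned into lactate. When oxygen is low, the hypoxia-inducible factors HIF-1 and HIF-2 escape breakdown, bind short DNA elements and raise the transcription of glucose transporters, glycolytic enzymes and Vegfa, the gene of the growth factor that draws in blood vessels. In the tooth germ, capillaries lie in the follicle and grow into the papilla around the time when dentin is first laid down. The genes are ordered below by their place in the pathway.

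Promoters are shown because the core of the hypoxia response element, ACGTG, is the short sequence that HIF is known to bind. The windows are the 250 bases before an annotated start of the gene, from RefSeq (GRCm38.p6), written 5′ to 3′ on the strand of the gene with each ACGTG, or its reverse complement CACGT, in capitals. Where the strands overlap, the 6 letters of CACGTG hold a match on each strand. Slc2a1 (chr4:119108495-119108744, plus strand) and Pfkl (chr10:78009808-78010057, minus strand) stood at opposite ends of the members in the comparison of tissues. Hk2 (chr6:82774455-82774704, minus strand) had the largest change between stages in its DF over P ratio as reported, and a window of Ldha (chr7:46845554-46845803, plus strand) held the most matches. This Ldha window lies inside the annotated locus, before an internal start, and the other Ldha window in the table held 0 matches.
Slc2a1: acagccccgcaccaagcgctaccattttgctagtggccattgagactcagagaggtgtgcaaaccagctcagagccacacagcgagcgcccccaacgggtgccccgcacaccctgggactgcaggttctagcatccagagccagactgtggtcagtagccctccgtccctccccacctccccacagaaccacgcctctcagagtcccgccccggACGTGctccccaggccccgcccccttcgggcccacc
Hk2: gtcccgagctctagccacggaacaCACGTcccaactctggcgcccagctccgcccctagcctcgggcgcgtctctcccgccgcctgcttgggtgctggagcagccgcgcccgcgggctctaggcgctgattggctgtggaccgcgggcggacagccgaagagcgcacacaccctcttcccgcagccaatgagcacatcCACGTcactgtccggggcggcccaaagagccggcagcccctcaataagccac
Ldha: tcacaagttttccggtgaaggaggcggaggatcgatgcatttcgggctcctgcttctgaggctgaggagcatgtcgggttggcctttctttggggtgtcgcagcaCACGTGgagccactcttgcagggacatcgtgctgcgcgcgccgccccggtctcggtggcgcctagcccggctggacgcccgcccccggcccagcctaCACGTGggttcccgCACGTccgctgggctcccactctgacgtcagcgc
Pfkl: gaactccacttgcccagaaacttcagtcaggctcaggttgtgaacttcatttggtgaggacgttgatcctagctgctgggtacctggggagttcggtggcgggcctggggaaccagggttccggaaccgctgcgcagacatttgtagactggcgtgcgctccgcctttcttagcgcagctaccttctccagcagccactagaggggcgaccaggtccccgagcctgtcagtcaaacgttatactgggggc
The Slc2a1 window held 1 match, 36 bases before the start. That of Hk2 held 2 and that of Ldha 5, in 3 separate runs, while these letters are not in the Pfkl window. Over all windows of the members, 8 of 17 windows held a match, against 16.6% of 32851 windows in the promoter table. Windows of a gene can overlap, and the Aldoa windows with a match share the same match. By gene, a match was held by 7 of 10 (Slc2a1, Hk2, Aldoa, Pgk1, Pkm, Ldha and Vegfa), against 18.5% of 27025 genes. The members, however, had more windows per gene. For Aldoa, Pkm and Vegfa, as for Ldha, the match lay inside the annotated locus, before an internal start. Another window of each of these genes held 0 matches. The letters of the motif include CG, so the share depends on base composition. A match describes the letters only.

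The deposited signals hold 1 column per tissue and stage, identical wherever it recurs, so that there were no replicates and no p-value was computed. A difference therefore has no check against the spread between animals. The number of arrays limits the precision. Values are quantile-normalised signals, averaged per gene on the log2 scale. Genes whose ratio passed 2-fold, a log2 ratio of 1 and the limit the labels name, are called higher or lower. The SD between probes of the same gene on the same hybridisation was the technical error, and over the 6749 genes with several probes it lay between 0.47 and 0.77 (log2) in the 4 comparisons. Of the tissue markers, 6 of 8 follicle genes were higher and 6 of 8 papilla genes lower in DF than in P at both stages, with a follicle gene, Foxf2, lower at E17 (-1.82) and a papilla gene, Lhx8, higher at PN2 (1.29).

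Few ratios of the members passed 2-fold. Of 36 ratios, 9 genes in each of 4 comparisons, 1 passed 2-fold, that of Slc2a1 between DF and P at PN2. Among all genes, 10.5% were higher and 10.1% lower for DF over P at E17, and 12.8% and 13.4% at PN2. For PN2 over E17 these shares were 3.83% and 4.06% in DF, and 6.55% and 5.09% in P. The members' 1 of 9 higher in DF at PN2 is near that background. From the highest to the lowest of the 4 columns the members had a median span of 0.78 (log2), against 0.93 over all genes, and 3 of 9, Slc2a1, Pfkl and Gapdh, spanned more than 2-fold, against 45.4% of all genes. The probes of a member lay close together in the comparison of tissues at E17, with a pooled SD of 0.13 over the 6 members with several probes, against 0.58 over all genes. At PN2 their SD was 0.57, with Pkm and Vegfa the most divided. Because the median profile of the members spanned only 0.49 (log2), no genes of like pattern were sought.

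**Figure D1:**
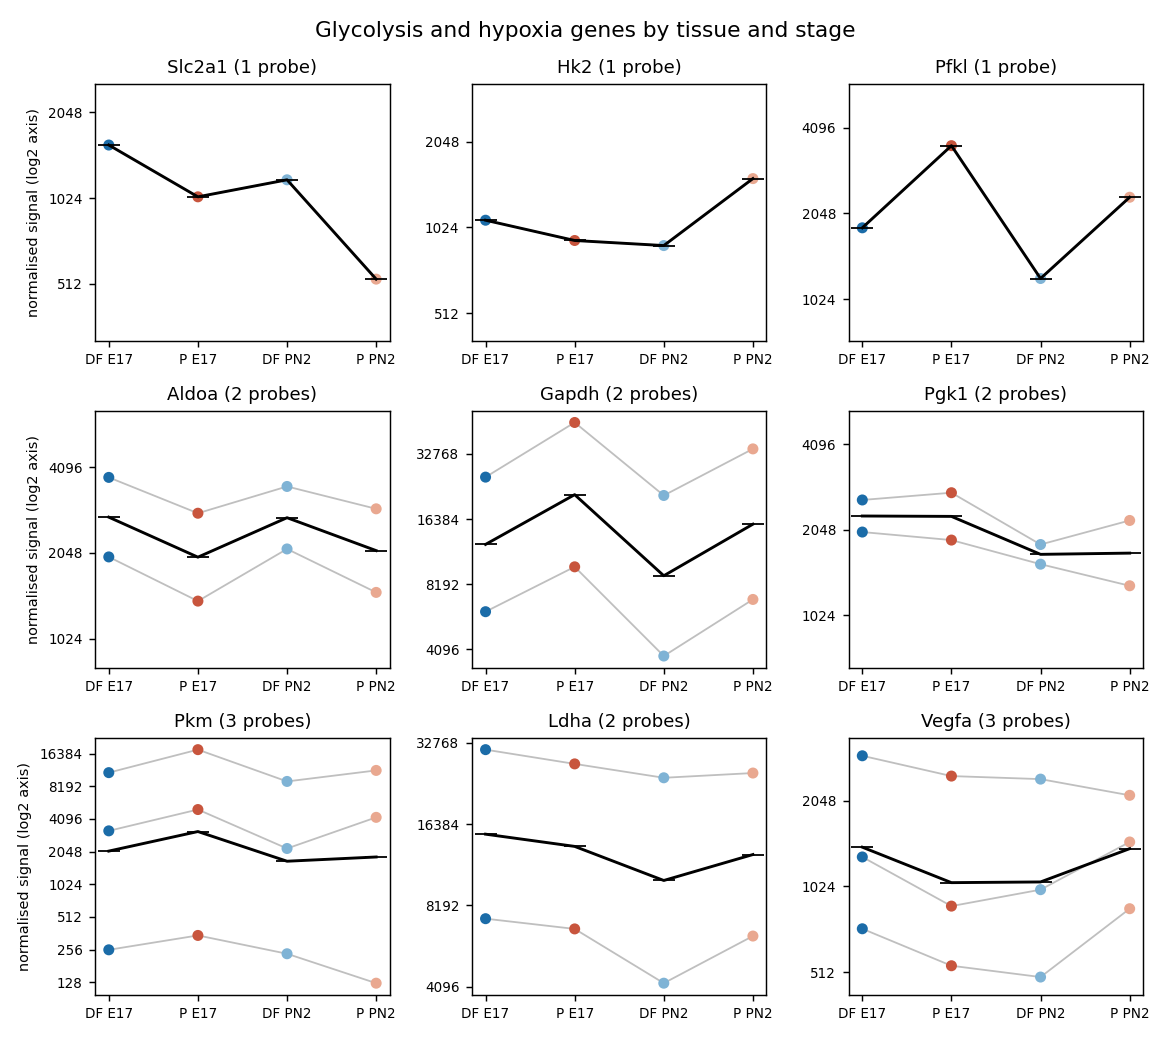
Normalised signal of the 9 measured members in the 4 columns, on log2 axes. Each dot is a probe in a tissue and stage, grey lines join the dots of a probe, and the black line joins the gene means. Slc2a1 is lowest in P PN2 at 531, while Pfkl and Gapdh are highest in P E17 and lowest in DF PN2.

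Slc2a1, the gene of the glucose transporter GLUT1, was the member farthest to the follicle side. Its normalised signal was 1573 in follicle and 1034 in papilla at E17 and 1187 in follicle and 531 in papilla at PN2. Both follicle columns lay above both papilla columns, and P PN2 was the lowest. The log2 ratio of DF over P was 0.60 at E17 and 1.16, or 2.23-fold, at PN2. In the papilla the PN2 level was below that at E17 by a log2 ratio of -0.96, just inside the 2-fold limit, and in the follicle the ratio was -0.41. Slc2a1 has 1 probe, so it has no probe spread of its own, and the SD between probes over all genes was 0.77 in the comparison of tissues at PN2. The DF over P ratio at PN2 was 1.63 without normalisation, 1.37 with median centring and 1.54 in the deposited ratios. The other alternative settings cannot move a gene with 1 probe that passes the filters and lies above the floor.

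Markers of other cells differed between the same columns. The summed signal of 9 endothelial genes was 4293 (E17) and 3332 (PN2) in the follicle and 3089.9 (E17) and 2147 (PN2) in the papilla, which is the order of the columns of Slc2a1 and also of the sum of 8 follicle markers, 38328 in follicle and 4820.1 in papilla at E17 and 32550.5 in follicle and 3647 in papilla at PN2. Slc2a1 is itself known from capillary endothelium as well as from other cells. Of the endothelial genes, 2 were higher in the follicle at E17 (median log2 ratio 0.51) and 5 at PN2 (1.23). Within the papilla, 2 were lower in P PN2 than in P E17 (median -0.84). These counts varied over the settings, from 0 to 3 at E17, 2 to 5 at PN2 and 1 to 7 within the papilla. The medians kept their sign. Among the 5 at PN2, Cdh5 (1.52 ± 1.66) and Tek (1.27 ± 1.93) had an SD of 2 probes wider than their ratios. Toward the papilla were 2 genes at each stage, Kdr (-0.46) and Sox18 (-0.16) at E17 and Cldn5 (-0.42) and Esam (-0.16) at PN2. Of 6 erythroid genes, 5 were higher in DF than in P at PN2 (median log2 ratio 2.52), and their sum was 6286 (E17) and 19555 (PN2) in the follicle and 7513 (E17) and 3570.5 (PN2) in the papilla. Osteoclast and leukocyte markers were also high in the follicle. As reported, all 10 osteoclast genes were higher in DF at each stage. Over the settings 7 to 10 were higher, with up to 1 lower at PN2. Itgb3 stood at 2.31 ± 4.49 at E17 and 2.03 ± 4.69 at PN2, an SD of 2 probes wider than its ratios. The sum of the 10 genes was 77732 in follicle and 4427 in papilla at E17 and 86661 in follicle and 3479 in papilla at PN2. That of 9 macrophage and leukocyte genes, 8 higher at E17 and 7 at PN2, was 33292.5 (E17) and 39460.3 (PN2) in the follicle and 3629 (E17) and 5289.8 (PN2) in the papilla. The 4 neutrophil genes stood out in the follicle at PN2, with a sum of 261 in follicle and 257 in papilla at E17 and 44075 in follicle and 478 in papilla at PN2. The part of these cells in the Slc2a1 ratio was not tested. In RNA of whole tissue, fewer cells of a type and less RNA per cell cannot be told apart.

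Other carriers of glucose and lactate were divided between the tissues. Of 12 that passed the filter, at E17 the follicle had 1 higher and 2 lower, and at PN2 1 higher and 3 lower (medians -0.28 and -0.13, the latter between -0.89 and 0.12 over the settings). The shares of all genes past 2-fold either way were 20.6% at E17 and 26.2% at PN2, which these counts are near. Slc2a12, the gene of a further glucose transporter, had 156 (E17) and 219 (PN2) in the follicle and 562 (E17) and 404.5 (PN2) in the papilla, with log2 ratios of DF over P of -1.85 and -0.89. Slc2a5, which encodes the fructose transporter, was on the papilla side past 2-fold at both stages (-2.35 and -1.15), from low signals of 25.5 in the E17 follicle and 130.5 in the E17 papilla. Slc2a10, for the transporter GLUT10, was lower in DF at PN2 (-1.07). The neuronal-type glucose transporter gene Slc2a3 stood at -0.39 and 0.28. Slc16a7, for a carrier of pyruvate and lactate, was the gene past 2-fold toward the follicle, with 299 in follicle and 95.4 in papilla at E17 and 313 in follicle and 72.8 in papilla at PN2 (log2 ratio 1.65 ± 0.29 at E17 and 2.10 ± 0.70 at PN2, SD of 2 probes). Slc16a3, the lactate exporter gene that hypoxia induces, lay at -0.43 and 0.00. Bsg, whose product basigin brings lactate carriers to the cell surface, had 7839 (E17) and 4969 (PN2) in the follicle and 5555 (E17) and 10414.5 (PN2) in the papilla. In P PN2 over P E17 it stood at 0.91, where Slc2a1 stood at -0.96. Its log2 ratio of DF over P was 0.50 at E17 and -1.07 at PN2. Between stages 0 of 12 carriers passed 2-fold in either tissue, while without normalisation 6 were lower at PN2 in the papilla.

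Hk2, whose product hexokinase traps glucose in the cell by phosphorylation, had its highest level in the PN2 papilla. Its signal was 1085 in follicle and 921 in papilla at E17 and 884 in follicle and 1520.2 in papilla at PN2. The PN2 papilla stood above the other columns, which lay close together, with log2 ratios of 0.72 for P PN2 over P E17 and -0.78 for DF PN2 over P PN2. The DF over P ratio moved from 0.24 at E17 to -0.78 at PN2, a change of -1.02. No other member changed sign between stages and moved past 2-fold as reported, where 8.91% of all genes did so. With the median of probes Vegfa did too, from 0.57 to -0.56, a change of -1.13. A change past 2-fold downward was seen in 9.14% of all genes, near the 1 of 9 among the members. Hk2 has 1 probe. Without normalisation the change was -0.49 and the ratio within the papilla 0.04, so that both depend on how the columns were scaled. Hk1, the more widely used hexokinase gene, had 874 (E17) and 1432 (PN2) in the follicle and 1210.2 (E17) and 1249.7 (PN2) in the papilla, with DF over P at -0.47 ± 0.44 and 0.20 ± 0.92 (SD of 5 probes). Hk3 stood at -0.76 and -0.45.

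Pfkl, which encodes the liver-type subunit of phosphofructokinase, the enzyme of the committed step, was the member farthest to the papilla side. The signal was 1824 in follicle and 3546 in papilla at E17 and 1209.9 in follicle and 2336 in papilla at PN2. The papilla column was 1.94-fold the follicle column at E17 and 1.93-fold at PN2, and in each tissue the PN2 column was below that of E17. The log2 ratios were -0.96 and -0.95 for DF over P at E17 and PN2, both just inside the 2-fold limit, and -0.59 and -0.60 for PN2 over E17 in DF and P. The platelet-type gene Pfkp was on the same side, with 528.5 (E17) and 547 (PN2) in the follicle and 978 (E17) and 1084 (PN2) in the papilla (-0.89 ± 0.61 and -0.99 ± 0.51, SD of 3 probes). The muscle-type gene Pfkm lay at -0.11 and -0.65. Pfkfb3, whose product makes the activator of phosphofructokinase and is induced by hypoxia, stood at -0.56 ± 0.19 and -0.48 ± 0.65 (SD of 3 probes). Its relatives Pfkfb2 and Pfkfb4 stood at 0.15 and -0.05 and at -0.33 and 0.31. None of these genes passed 2-fold.

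The difference between members inside a column does not rest on how columns were scaled. In the deposited signals before normalisation, the DF over P log2 ratio of Slc2a1 exceeded that of Pfkl by 1.51 at E17 and by 2.10 at PN2, and that of Gapdh by 1.32 and 1.96. Hk2 exceeded Pfkl by 1.14 at E17 and by 0.13 at PN2. Such a difference does not itself place a gene on a side of 0, which depends on the scaling. Under every setting Slc2a1 stood above 0 and Pfkl below 0 in DF over P at both stages.

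Aldoa, the aldolase gene that splits fructose bisphosphate, was on the follicle side by a small margin. It had 2737 in follicle and 1980.0 in papilla at E17 and 2725 in follicle and 2088 in papilla at PN2. Its follicle columns were alike, as were its papilla columns. DF over P was 0.47 ± 0.07 at E17 and 0.38 ± 0.17 at PN2, and PN2 over E17 was -0.01 ± 0.14 in DF and 0.08 ± 0.04 in P (SD of 2 probes each). The brain-type gene Aldoc, dim with 113 (E17) and 77.1 (PN2) in the follicle and 191 (E17) and 178 (PN2) in the papilla, lay on the papilla side and was lower in DF at PN2 (-0.76 ± 0.19 and -1.21 ± 0.44). Tpi1, for triosephosphate isomerase, stood at 0.95 ± 0.86 and -0.49 ± 0.69, with its 2 probes far apart.

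Gapdh, the dehydrogenase gene often used as an internal standard, lay on the papilla side at both stages, inside the 2-fold limit. Its mean signal was 12512 in follicle and 21235 in papilla at E17 and 8967 in follicle and 15516 in papilla at PN2. Both papilla columns lay above both follicle columns, with log2 ratios of DF over P of -0.76 ± 0.11 at E17 and -0.79 ± 0.11 at PN2 (SD of 2 probes). Both probes showed the papilla above the follicle at each stage. PN2 over E17 was -0.48 ± 0.28 in DF and -0.45 ± 0.07 in P. The span between its highest and lowest column was 2.37-fold. Over the 8 alternative settings, the ratio ranged from -0.84 to -0.33 at E17 and from -0.79 to -0.33 at PN2. Gapdh, like Aldoa, Pgk1 and Ldha, has processed copies in the mouse genome, and cross-hybridisation was not tested because probe sequences are not used here.

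Pgk1, for phosphoglycerate kinase, the first step that returns ATP, showed no difference between tissues beyond its probes. It had 2287 (E17) and 1677 (PN2) in the follicle and 2279.7 (E17) and 1693.5 (PN2) in the papilla. The tissues were level at each stage, with DF over P at 0.00 ± 0.13 and -0.01 ± 0.38 (SD of 2 probes). PN2 over E17 was -0.45 ± 0.10 in DF and -0.43 ± 0.15 in P. Downstream of it, Pgam1, for phosphoglycerate mutase, had 4786 in follicle and 5016 in papilla at E17 and 2322.5 in follicle and 5634 in papilla at PN2. Its DF PN2 column was the lowest, so that it was lower in DF at PN2 both against P (-1.28) and against DF E17 (-1.04), from 1 probe. Among the enolase genes, Eno2 was higher in DF E17 than in P E17 (1.04 ± 0.03) and stood at -0.67 ± 0.15 at PN2 (SD of 2 probes), with 316 (E17) and 180.5 (PN2) in the follicle and 153 (E17) and 288 (PN2) in the papilla. The muscle enolase gene Eno3 stood at 0.78 and -0.24.

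Pkm, whose pyruvate kinase makes the last ATP of the pathway, had probes that diverged at PN2. By the mean of 3 probes it had 2070.2 in follicle and 3136 in papilla at E17 and 1669.5 in follicle and 1827 in papilla at PN2. At E17 all 3 probes were on the papilla side, with DF over P at -0.60 ± 0.14. At PN2 the ratio was -0.13 ± 0.95, which is no difference beyond the probes. The brightest probe had 10956 (E17) and 9089 (PN2) in the follicle and 17852 (E17) and 11484 (PN2) in the papilla and a ratio of -0.34 at PN2, the next -0.95, and the dimmest, with 254.5 in follicle and 345 in papilla at E17 and 234 in follicle and 125 in papilla at PN2, stood at 0.90. With the median of the probes in place of the mean, the PN2 ratio of Pkm was -0.95.

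Ldha, for the lactate dehydrogenase subunit that favours lactate, differed little between tissues. The mean signal was 15045 (E17) and 10133.5 (PN2) in the follicle and 13553 (E17) and 12643.5 (PN2) in the papilla. DF PN2 was the lowest column. DF over P was 0.15 ± 0.03 at E17 and -0.32 ± 0.37 at PN2, and DF PN2 over DF E17 was -0.57 ± 0.32 (SD of 2 probes). Its partner Ldhb, whose subunit favours pyruvate, had 1325 in follicle and 1544 in papilla at E17 and 1812 in follicle and 1461 in papilla at PN2, with ratios of -0.22, 0.31 and 0.45 in the same order of comparisons. None of these ratios passed 2-fold, and that of Ldha at PN2 was within the SD of its probes and turned to 0.19 without normalisation and 0.10 in the deposited ratios.

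**Figure D2:**
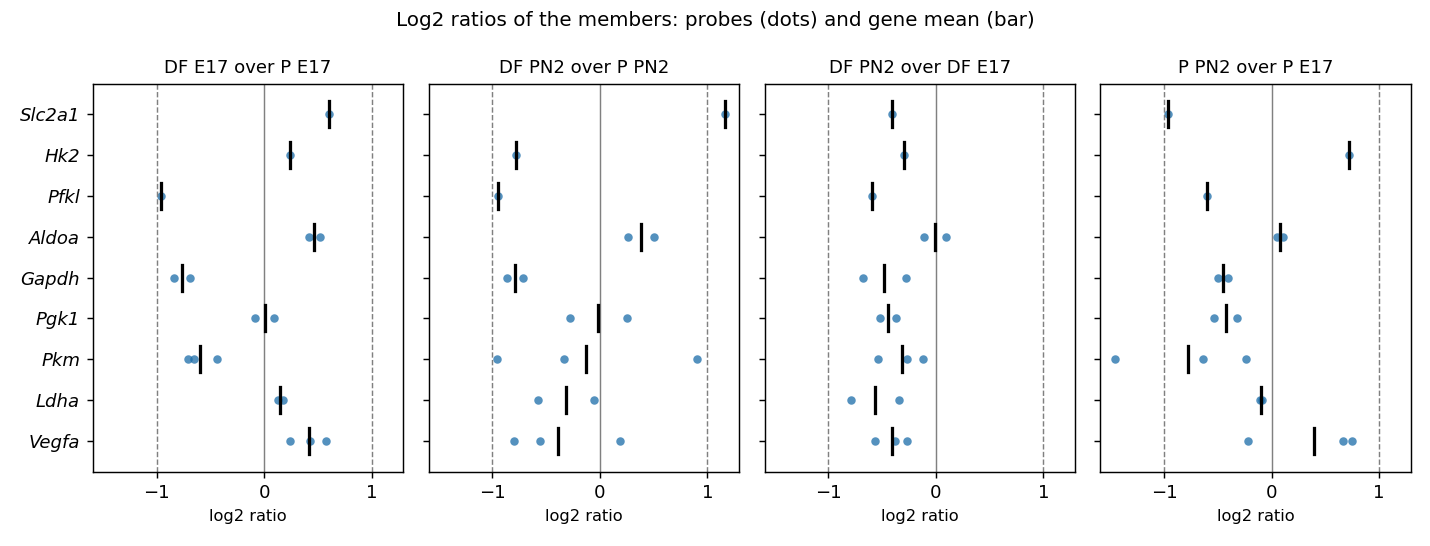
Log2 ratios of the 9 members in the 4 comparisons, on a common axis. Dots are probes, bars the mean over the probes of a gene, and dashed lines the 2-fold limit. The gene mean of Slc2a1 in DF PN2 over P PN2, at 1.16, is the 1 mean outside the limit, while the dimmest Pkm probe is outside it in P PN2 over P E17.

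Between stages the members leaned to the E17 side. In the follicle all 9 were below 0 for PN2 over E17 (median -0.41, from -0.59 for Pfkl to -0.01 for Aldoa), where 50.8% of all genes were below 0 and their median was -0.01. Of these, 8 stayed below 0 under all 8 alternative settings, and Aldoa did not. None passed 2-fold. The papilla had 6 of 9 below 0 (median -0.43, from -0.96 for Slc2a1 to 0.72 for Hk2), where 51.7% of genes were. Pfkl, Gapdh, Pgk1, Pkm and Slc2a1 were below 0 there under every setting. Without normalisation, where the median of all genes was itself -0.80, these same 5 genes were past 2-fold lower in P PN2 than in P E17. Relative to the median of all genes the members' median was then -0.21, and with quantile normalisation -0.41. The other 18 glycolysis enzymes had medians above 0 as reported, with 0 higher and 1 lower past 2-fold in the follicle (median 0.10, -0.20 to 0.16 over the settings) and 1 higher and 0 lower in the papilla (median 0.11, -0.65 to 0.22). Without normalisation 4 were lower in the follicle and 2 in the papilla. The papilla gene past 2-fold was Pgk2 (1.14), the testis form of phosphoglycerate kinase, at dim signals of 63.6 and 141. Of 9 cell cycle genes, 0 were past 2-fold in the follicle (median 0.08) and 2 were lower in the papilla (median -0.74), and their part in the members' levels was not tested.

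Between tissues the 18 other enzymes had 1 higher and 0 lower in DF at E17 (Eno2) and 0 higher and 2 lower at PN2 (Pgam1 and Aldoc), with medians of -0.17 (-0.36 to 0.10 over the settings) and -0.41 (-0.43 to -0.17). At E17, 3 were lower without normalisation and 3 higher in the deposited ratios. Of the members 3 of 9 were below 0 at E17 and 7 of 9 at PN2, against 53.9% and 53.6% of all genes, with medians of 0.15 and -0.32, the latter between -0.56 and 0.19 over the settings. The DF over P ratios of the 9 members at E17 and PN2, which come from separate columns, had a Pearson r of 0.647 across genes (Spearman 0.7), and over all 14238 genes r was 0.661. Genes are not independent replicates. By sign, 2 members lay on the follicle side and 3 on the papilla side at both stages, and 4 changed side. Over all settings the sign at PN2 held for Aldoa and Slc2a1 (follicle side) and for Hk2, Pfkl and Gapdh (papilla side), and it varied for the other 4.

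Vegfa, the vessel growth factor gene and a classical HIF target, had its lowest levels in P E17 and DF PN2. By the mean of 3 probes its signal was 1408 (E17) and 1062 (PN2) in the follicle and 1056 (E17) and 1391 (PN2) in the papilla. DF over P went from 0.41 ± 0.17 at E17 to -0.39 ± 0.51 at PN2, and PN2 over E17 was -0.41 ± 0.15 in DF and 0.40 ± 0.54 in P. The difference between tissues at PN2 is within the spread of its probes. The brightest probe had 2949.7 in follicle and 2503 in papilla at E17 and 2442 in follicle and 2142 in papilla at PN2 and showed a change of -0.05 in the DF over P ratio between stages, whereas the other probes showed -1.13 and -1.23. The probes thus divided over the PN2 papilla, where the dimmer ones were highest of their 4 columns and the brightest was lowest.

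Other ligands and receptors of the VEGF family had medians on the follicle side at both stages. Of 9 genes, 4 were higher and 1 lower in DF at E17 (median 0.73, 0.37 to 1.45 over the settings) and again at PN2 (median 0.91, 0.67 to 1.52). Among all genes, 10.5% were higher and 10.1% lower at E17, and 12.8% and 13.4% at PN2. The placental growth factor gene Pgf had 1712 (E17) and 1448 (PN2) in the follicle and 389 (E17) and 506 (PN2) in the papilla. Both follicle columns exceeded both papilla columns, with log2 ratios of 2.14 and 1.52. The co-receptor genes Nrp1 (1.74 ± 0.44 and 1.21 ± 0.61, SD of 3 probes) and Nrp2 (1.65 and 2.21) and the lymphatic receptor gene Flt4 (1.25 and 2.02) were higher at both stages, and Vegfd was lower (-1.74 and -1.24). Vegfd was dim, with 37.0 (E17) and 43.3 (PN2) in the follicle and 123 (E17) and 103 (PN2) in the papilla, and passed the filter through the papilla alone. The main receptor gene Kdr stood at -0.46 ± 0.41 and 0.63 ± 1.42 (SD of 2 probes). Between stages 0 of 9 passed 2-fold in either tissue, while in the papilla 4 were lower at PN2 without normalisation and 2 with the brightest probe. Kdr also stands among the endothelial markers given above, and the part of endothelial cells in these ratios was not tested.

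Among factors and sensors of the oxygen response, single genes passed 2-fold at the level of RNA. HIF activity is set mainly through protein breakdown, so these levels do not measure it. Of 9 genes, 1 was past 2-fold in each of 3 comparisons, Hif3a in 2 of them and Hif1an in the third, and 0 in DF PN2 over P PN2. Among all genes, 20.6% were past 2-fold either way in DF over P at E17 and 26.2% at PN2. For PN2 over E17 the shares were 7.89% in DF and 11.6% in P, which 1 of 9 is near. Hif1a, the HIF-1 subunit gene, had 172 in follicle and 216 in papilla at E17 and 179 in follicle and 186 in papilla at PN2. Its log2 ratios stayed between -0.33 and 0.06. Epas1, for the HIF-2 subunit, had 603 (E17) and 711 (PN2) in the follicle and 725 (E17) and 931 (PN2) in the papilla. Hif3a was higher in DF E17 than in P E17 (1.14) and lower in DF PN2 than in DF E17 (-1.05), but the SD of its 3 probes was 1.97 in the former and 0.40 in the latter. Hif1an, for the asparagine hydroxylase that restrains HIF, was higher in P PN2 than in P E17 (1.01 ± 0.34, SD of 3 probes). Over the settings, the number of these genes past 2-fold in either direction stayed between 0 and 2 in each of the 4 comparisons.

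Other genes known to be induced by hypoxia, 26 past the filter, ranged from -1.79 to 4.01 in DF over P at E17, where the members ranged from -0.96 to 0.60. In DF over P, 8 were higher and 2 lower at E17, where the background was 10.5% and 10.1%, and 10 were higher and 4 lower at PN2, against 12.8% and 13.4%. The medians were 0.40 (0.23 to 0.77 over the settings) and 0.58 (0.38 to 0.92), and the number higher ranged over the settings from 6 to 10 at E17 and from 8 to 13 at PN2. Farthest to the follicle side at E17 was Ndrg1, a stress- and hypoxia-induced gene, with 1649 in follicle and 102 in papilla at E17 and 979 in follicle and 295 in papilla at PN2. Both follicle columns were above both papilla columns, with log2 ratios of 4.01 and 1.73. Lox, for the collagen-crosslinking lysyl oxidase and also a follicle marker here, had 411 (E17) and 350.1 (PN2) in the follicle and 39.8 (E17) and 98 (PN2) in the papilla (3.37 and 1.84). Edn1, for the vessel-constricting peptide endothelin, was high in the E17 follicle alone, with 182 in follicle and 40.1 in papilla at E17 and 35.7 in follicle and 27.6 in papilla at PN2, and stood at 2.18 at E17. At PN2 the highest were Pdgfb (2.04 ± 1.31, SD of 2 probes), Lox and Ndrg1. On the papilla side were the erythropoietin gene Epo, with 40.9 (E17) and 37.7 (PN2) in the follicle and 142 (E17) and 134 (PN2) in the papilla (-1.79 and -1.83), and the carbonic anhydrase gene Car12 (-1.04 ± 1.31 and -1.55 ± 2.65, SD of 2 probes, which is wider than its ratio).

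Over time, genes of this list lay on both sides of 0. P4ha2 and Plod2, for enzymes that hydroxylate collagen, had their highest levels in P PN2. P4ha2 had 2148 in follicle and 1656 in papilla at E17 and 1390.3 in follicle and 4729 in papilla at PN2. Plod2 had 1646 (E17) and 1262 (PN2) in the follicle and 581 (E17) and 2162 (PN2) in the papilla. P4ha2 was lower in DF than in P at PN2 (-1.77), and both were higher in P PN2 than in P E17 (1.51 and 1.90), as was Ndrg1 (1.53). Pdk1, for a kinase that inhibits pyruvate dehydrogenase, had 325 in follicle and 296 in papilla at E17 and 285 in follicle and 131 in papilla at PN2. It was the 1 gene of the list lower in P PN2 than in P E17 (-1.18 ± 0.39, SD of 2 probes). In that comparison 5 of 26 were higher past 2-fold and 1 lower, against 6.55% and 5.09% of all genes. Without normalisation 1 was higher and 10 lower, against 0.89% and 35.0% of all genes. The median as reported was -0.09 (-0.86 to 0.20 over the settings). In DF PN2 over DF E17, Angptl4, for a secreted lipase inhibitor, was higher (1.59), and Edn1 (-2.35) and the HIF target gene Ankrd37 (-1.79) were lower. Bnip3, for a HIF-induced mitophagy receptor, had 1363 (E17) and 1012 (PN2) in the follicle and 1664 (E17) and 1553 (PN2) in the papilla, the order of columns of Gapdh and Pfkl, with no ratio past 2-fold.

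**Figure D3:**
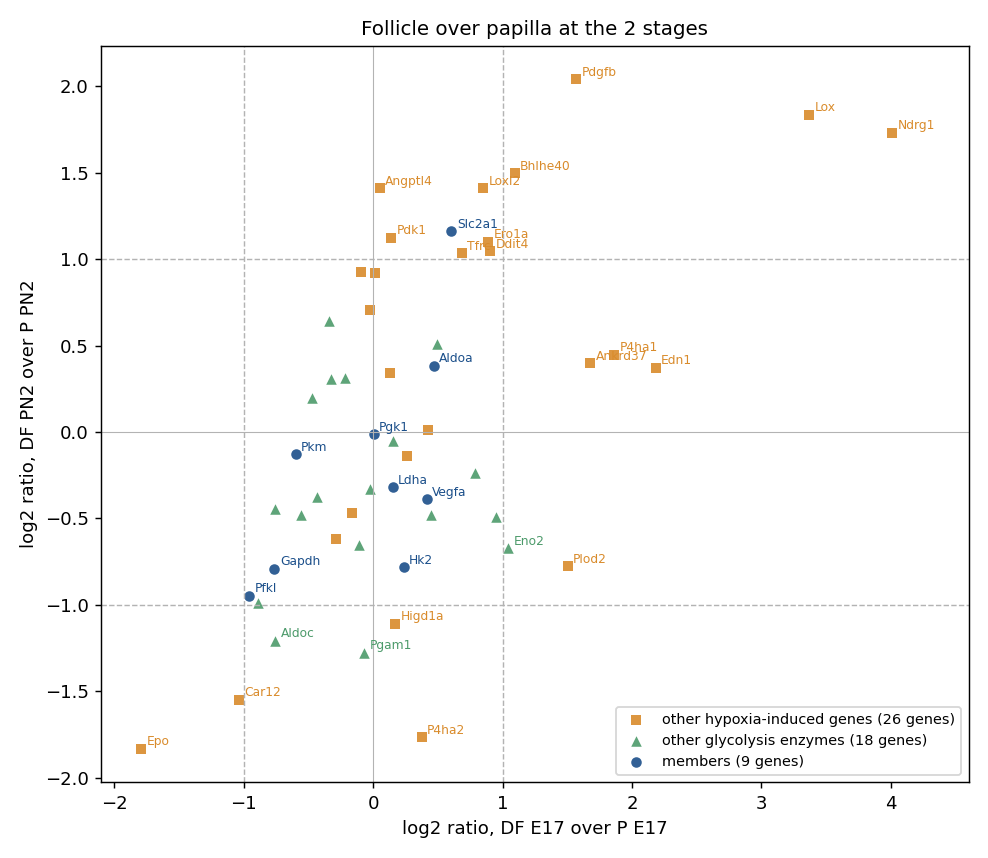
Log2 ratio of DF over P at E17 (horizontal) and at PN2 (vertical) for the 9 members, 18 other glycolysis enzymes and 26 other hypoxia-induced genes that passed the filter. Dashed lines mark the 2-fold limit; members and genes past 2-fold are named. All members except Slc2a1 lie inside the limits, whereas Ndrg1 (4.01 and 1.73) and Lox (3.37 and 1.84) lie far to the follicle side.

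Epithelial markers in the papilla columns also differed between stages. Of 8 epithelium and ameloblast markers, 6 were higher in P PN2 than in P E17 (median 1.79), and the sum over 9 genes, 1 of them below the filter, was 3359.4 in follicle and 3905 in papilla at E17 and 3773 in follicle and 13972 in papilla at PN2. Of the P PN2 sum 9018 came from Sp6, a transcription factor gene of the dental epithelium. Of 6 odontoblast markers, 2 were higher in P PN2 than in P E17, Bglap (2.42) and Col1a1 (2.21), with a sum of 53267 (E17) and 54634 (PN2) in the follicle and 14575 (E17) and 40103 (PN2) in the papilla. Col1a1 alone gave 51327 of the sum in each follicle column, and 6362 (E17) and 29511 (PN2) in the papilla. In DF over P, 1 marker was higher and 2 lower at E17, and 0 were higher and 2 lower at PN2. The lower ones were Dlx3 (-4.50 and -3.53) and Smpd3 (-2.89 and -2.24). Hk2, Bsg, P4ha2 and Plod2 were highest in P PN2, and the part of these cells in their levels was not tested.

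**Figure D4:**
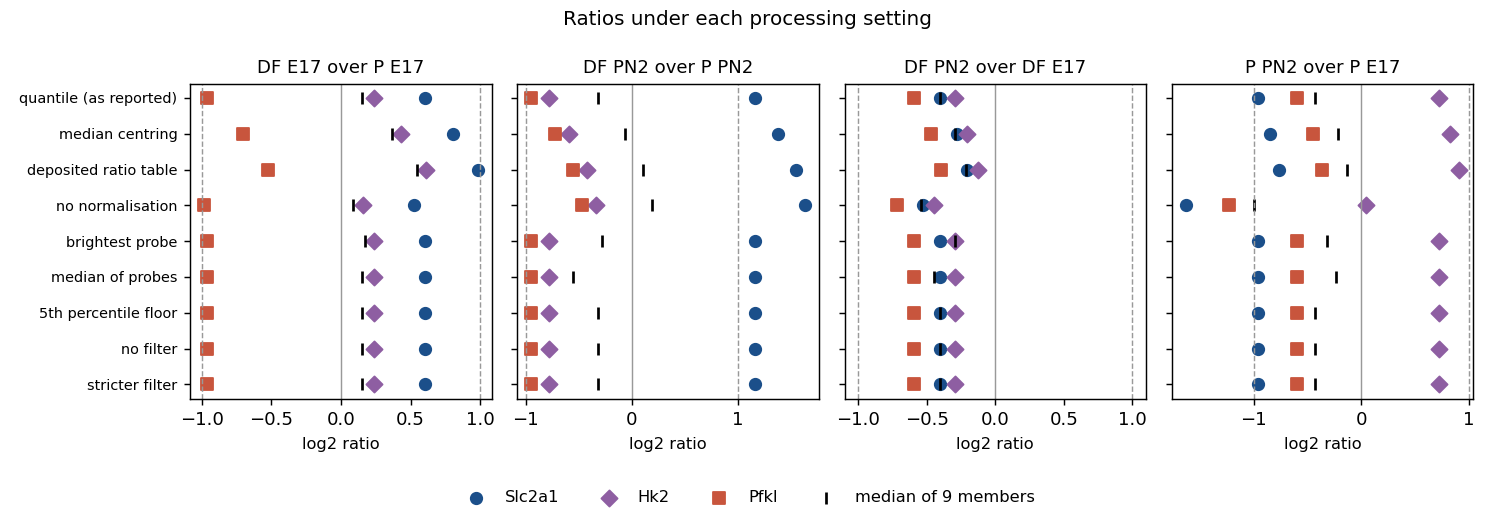
Log2 ratios of Slc2a1, Hk2, Pfkl and the median of the 9 members in the 4 comparisons under the reported processing (top row) and 8 alternatives. The horizontal axes differ in range between panels, and dashed lines mark the 2-fold limit. The order Slc2a1, Hk2, Pfkl is the same in all rows for DF over P, while all values in P PN2 over P E17 shift down without normalisation, where Slc2a1 reaches -1.63. These 3 genes have 1 probe each, so that only the settings that scale the columns differently can move them.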

How the data were processed

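RNA of dental follicle and papilla at E17 and PN2 was hybridised to 4 Agilent 2-colour arrays. Per the submitters' processing notes, the scanner software was Agilent Feature Extraction 8.5.1.1. The deposited signal intensity values are linear, in 2 columns per array for 30146 probes, and the sources used here do not give the background treatment. A deposited table holds log10 ratios, each shifted by a fixed amount per array from that of the signals. Each tissue and stage has identical signals wherever it recurs, also under different dye labels. The array titled as the papilla stages holds DF E17, in name and values, where P E17 should stand, so P E17 comes from the E17 array. The deposited ratio of that array follows P E17 as denominator (r 1.00 over probes) and not DF E17 (r 0.449).

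Probes with 1 gene symbol in the platform table (25962) were used, and 4184 unnamed probes were left out. Signals were log2 transformed without a pseudocount, then quantile normalised across columns, and probes were averaged per gene (Python 3.11.15, numpy 2.4.6, pandas 2.3.3). Genes reaching a normalised signal of 100 were kept. Ratios past 2-fold were called. The steps were tested on simulated data. Named are all members, up to 3 highest and 3 lowest genes past 2-fold of each list, and housekeeping genes; isoforms of the members' steps and a few HIF targets were named after their values were seen. The members and lists were chosen with earlier results of these data known. Alternatives were no normalisation, median centring, the deposited ratios, the brightest probe, the median of probes, a floor at the 5th percentile of signals (37.9), no filter, and a filter at 400.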

Additional observations from a re-analysis of the deposited data

Results flagged for a closer look

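The follicle over papilla ratio of Hk2 had opposite signs at E17 (0.24) and PN2 (-0.78), a change of -1.02 (log2). As reported, no other member turned from one tissue to the other and moved past 2-fold, where 8.91% of all genes did so. With the median of probes Vegfa also did, from 0.57 to -0.56, a change of -1.13. With 1 signal column per tissue and stage, the difference was not tested. Across the 8 alternative settings the change lay between -1.04 and -0.49. Hk2 has 1 probe, so only the settings that scale the columns differently can move it. The change of Hk2 minus that of Pfkl, in which column scaling cancels, was -1.01 in the deposited signals.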

How the results depend on the processing

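Agreement between settings is a weak check here. The floor and the filters cannot move any member value, because all members pass each filter and lie above the floor. The SD between probes, 0.47 to 0.77 in the 4 comparisons, is larger in size than each reported median of the members. Over 8 alternative settings, the counts of members past 2-fold and the members' medians in the 4 comparisons, and the median change between stages, kept within 1.5 times the count or within the SD between probes in 103 of 104 values. The exception was the number of members lower in P PN2 than in P E17, which was 0 as reported and 5 without normalisation, where the median of all genes lay at -0.80. Of the values of single members, 355 stayed within the SD between probes and 5 moved by more: without normalisation in P PN2 over P E17, Hk2 to 0.04, Slc2a1 to -1.63 and Vegfa to -0.29, and with the median of probes Pkm, to -0.95 in DF PN2 over P PN2 and to -0.30 in the change between stages. The median of the members in DF PN2 over P PN2 turned from -0.32 to 0.19 without normalisation and to 0.10 in the deposited ratios. Without normalisation the share of higher genes among all calls moved from 50.9% to 25.5% for DF over P at E17, from 48.9% to 63.3% at PN2, from 48.5% to 21.2% in the follicle and from 56.3% to 2.49% in the papilla. In the deposited ratios it was 60.9%, 57.4%, 49.8% and 65.8%, respectively. In the change between stages, Hk2 was lower past 2-fold as reported, whereas without normalisation it stood at -0.49 and Slc2a1, at 1.11, was higher past 2-fold. With the median of probes Vegfa, at -1.13, was lower past 2-fold beside Hk2. No paired analysis was possible because there is 1 column per tissue and stage. No replicate could be left out. Genes with 1 probe, Slc2a1, Hk2 and Pfkl among them, have no technical error of their own.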

Other observations

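Routes that branch from glycolysis held genes past 2-fold between the tissues, where 20.6% of all genes were past 2-fold either way at E17 and 26.2% at PN2. Pygl, for the liver form of glycogen phosphorylase, which frees glucose units from glycogen, had 704 in follicle and 130.4 in papilla at E17 and 954 in follicle and 173 in papilla at PN2, and was higher in the follicle at both stages (log2 ratios 2.43 and 2.46). Gyg, for the glycogen primer glycogenin, was higher at E17 (1.78) and stood at 0.81 at PN2. Of 11 glycogen and gluconeogenesis genes, 2 were higher and 1 lower in DF at each stage, which is near the share of all genes. At PN2 Pgm2 was the other higher gene (1.04), at low signals of 77.8 in follicle and 37.8 in papilla. It passed the filter through DF E17 alone, at 138. The lower ones were G6pc at E17 (-1.10), for the phosphatase that releases free glucose, and Pck2 at PN2 (-1.81), for mitochondrial phosphoenolpyruvate carboxykinase. In the pentose phosphate pathway 0 of 6 genes passed 2-fold at E17 and 2 were higher in DF at PN2, Taldo1 (1.30), for transaldolase, and Rpe (1.07), for the epimerase. Over the settings, the number higher in DF at PN2 lay between 1 and 3 in each of these lists.

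The genes of pyruvate dehydrogenase and the citrate cycle had few ratios past 2-fold, with 1 of 25 higher and 1 lower in DF at each stage and 0 past 2-fold between stages in either tissue. These counts depend on the processing: without normalisation 7 were higher in DF at PN2 and 5 lower in P PN2 than in P E17, and with the brightest probe 3 were lower in DF at PN2 and 3 higher in P PN2 than in P E17. Pdk4, for a kinase that switches off pyruvate dehydrogenase, was higher in the follicle at both stages (1.92 and 2.18), with 447 (E17) and 538.5 (PN2) in the follicle and 118 (E17) and 119 (PN2) in the papilla. Suclg2, for a subunit of succinyl-CoA ligase, was lower in DF at E17 (-1.60 ± 0.69) and Pdha1, for a subunit of pyruvate dehydrogenase, at PN2 (-1.11 ± 0.43, SD of 2 probes each). Among 9 housekeeping genes, the log2 ratios of DF over P at E17 and PN2 were -0.22 and -0.37 for Tbp, 0.24 and 0.35 for Hprt, -0.48 and -0.40 for Ppia, and 0.20 and -0.45 for Rplp0. Ywhaz stood at -0.22 and 0.32, Sdha at 0.45 and 0.46 and Tubb5 at 0.11 and -0.69. Past 2-fold were Gusb (1.09 ± 0.37 and 1.01 ± 1.12) at both stages and B2m (1.29 ± 0.91) at PN2, after 0.83 at E17.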
